A study of Homo sapiens with 6 samples.

Results

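Tetraspanins are small proteins that cross the membrane repeatedly and carry a large extracellular loop. They gather integrins, proteases and adhesion receptors into membrane domains, and CD9, CD63 and CD81 are commonly used as markers of extracellular vesicles. Messenger RNA of 31 tetraspanin genes was examined among the 62703 genes counted in MDA-MB-231. These cells are an established line from a triple-negative breast cancer, of mesenchymal type. The members were chosen by gene symbol (TSPAN followed by a number, plus CD9, CD37, CD53, CD63, CD81, CD82, CD151, PRPH2, ROM1, UPK1A and UPK1B), by a protein-coding annotation and by position on an autosome. The family was picked with counts of both groups known, that is, the comparison of shRNF20 with shControl. The differences of its members between the groups are therefore given as a description, with the fold change and standard error (SE) of a fit across all genes and with no p-value for a member. "Called" means an edgeR adjusted p under 0.05 in that fit, and "rose" or "fell" is written of called genes.

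The cells of 3 libraries carried a control hairpin (shControl) and those of 3 others hairpin RNA targeting RNF20 (shRNF20), and the labels name no other treatment. RNF20 is the ubiquitin ligase that, with RNF40, modifies histone H2B in transcribed genes. Whether the lines were pools or single clones, and how many hairpins were used, is not given in the sources used here. Nothing says that replicates were separate cultures, so spread and p-values measure only the difference between these samples, which may be technical.

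Gene counts ranged from 21988826 to 29685306 per library. RNF20 (chr9:101533851-101563344, GRCh38) measured 57.8, 58.5 and 58.0 CPM in the shControl libraries (counts per 1000000 counts, on TMM-scaled library sizes). In the shRNF20 libraries it measured 14.1, 12.2 and 11.1 CPM, a log2 fold change of -2.22 (SE 0.11, edgeR adjusted p = 5.23e-06). The line's defining markers VIM, CD44, EGFR, AXL and CAV1 averaged 638, 821.5, 432, 1358 and 284 CPM in shControl, while PGR averaged 0.0841 CPM. In shRNF20 these markers averaged 475, 351, 381, 1304 and 272 CPM. VIM (log2 fold change -0.425), CD44 (-1.23) and EGFR (-0.18) fell, and AXL and CAV1 were not called. The EGFR call was lost without any 1 shRNF20 library. ESR1 averaged 0.0997 CPM in shControl and 1.44 CPM in shRNF20, and ERBB2 averaged 102 and 139 CPM (both called higher). Mitochondrially encoded RNA made up 0.93% to 1.38% of gene counts in shControl and 4.91% to 6.22% in shRNF20, and its part in the results below was not tested beyond a scaling without those genes, which left every tetraspanin call in place. The shControl libraries differed more among themselves, with a common biological coefficient of variation of 20.04% against 3.97% in shRNF20. Among the tested tetraspanins the coefficient of variation was larger in shControl for 18 of 22, and shControl replicate 2 was the highest control for 14. In bulk RNA, fewer cells with a transcript and less transcript per cell cannot be told apart.

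The family's share of gene counts overlapped between the groups, with 0.217% to 0.25% in shControl and 0.23% to 0.239% in shRNF20. Of the 31 members, 22 had enough counts to be tested, each with at least 17 counts in every library of both groups. The other 9 had at most 14 counts in any library. Among the 22 tested, 10 fell, 2 rose and 10 were not called. Without shRNF20 replicate 1, 5 were called lower, and without shRNF20 replicate 2 or replicate 3, 1 was called higher. With the shRNF20 libraries summed to 1 sample, 3 were called lower and 0 higher. Over all 15797 genes tested, 58.4% were called, 28.7% higher and 29.8% lower, and nothing is read from the members' counts against these shares, since the contrast is the one the family was picked with. The median log2 fold change of the tested members was -0.40 (-0.01 over all genes tested). The share of all genes tested whose groups did not overlap was not computed. A lack of overlap is therefore given below only as a description of a gene.

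**Figure D1:**
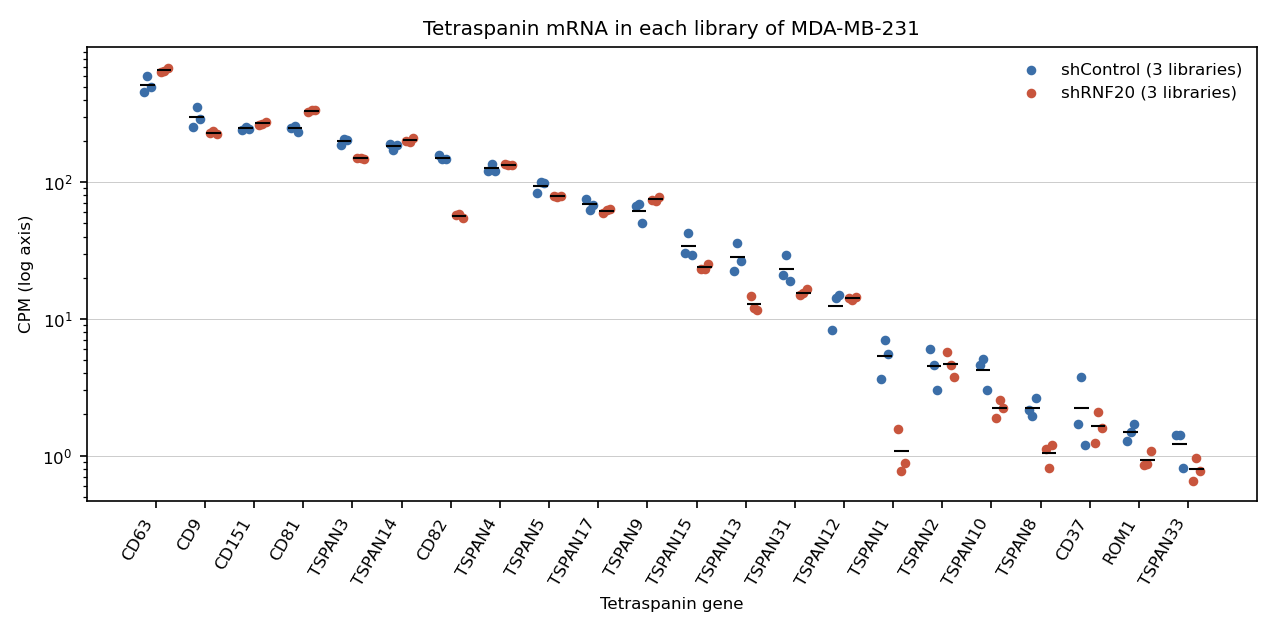
CPM (log axis) of the 22 tetraspanins tested, in order of their mean in shControl. Each point is a library and each black line is the mean of 3 libraries. CD82, TSPAN13 and TSPAN1 lie clearly lower in shRNF20, CD81 lies higher, and the shControl points scatter more than the shRNF20 points.

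A few members made up most of the family's mRNA. Levels between genes were compared as TPM (counts per kilobase of annotated exon, scaled to 1000000 in a library). CD63, a tetraspanin of late endosomes and lysosomes, led at 727, 936 and 778 TPM in the shControl libraries and held 36.8% of the family's summed level. CD9, a plasma membrane tetraspanin of motility and cell fusion, followed at 255, 352 and 289 TPM, and overlapped with CD151, the integrin-binding tetraspanin, at 258, 268 and 261 TPM. CD82, known as a suppressor of metastasis, stood at 163, 151 and 152 TPM, above CD81, a receptor for hepatitis C virus, at 142, 144 and 132 TPM. TSPAN3, which is widely expressed, was next at 91.5, 101 and 99.3 TPM and overlapped with TSPAN4, a component of migrasomes, at 86.4, 96.9 and 86.2 TPM.

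The first 6 of these in order (CD63, CD9, CD151, CD82, CD81 and TSPAN3) held 79.8% of the family's summed level in shControl and 82.8% in shRNF20. A middle group lay between 37.5 and 55.1 TPM on average, namely TSPAN17, TSPAN15, TSPAN13, TSPAN5, TSPAN14 and TSPAN9. Within it the libraries of neighbours overlapped, except for TSPAN5 above TSPAN14. TSPAN31 (17.9 TPM) and TSPAN12 (15.5 TPM) overlapped with each other, and TSPAN1, TSPAN2, TSPAN10, TSPAN8, ROM1, CD37 and TSPAN33 lay between 9.46 and 1.85 TPM. With the longest transcript as the length, CD63 to CD81 kept their order and TSPAN4 passed TSPAN3. The middle group changed its order and range, from TSPAN5 at 69.3 TPM to TSPAN14 at 34.1 TPM.

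These levels depend on where reads could be counted. Reads in exons of more than 1 gene were not assigned, so genes that overlap others are understated. The summed strand columns held 1.74 times as many reads as the unstranded count for CD151, 1.38 times for CD82 and 1.15 times for CD81. The ratio was 6.35 for TSPAN31, 7.26 for ROM1 and 4.26 for CD37, and 1.01 or less for CD63, CD9, TSPAN3 and TSPAN4. The reads divided evenly between the strand columns, so the sum also takes in reads of an overlapping gene on the opposite strand. The ratios therefore do not measure how far a member is understated. In the annotation, CDK4 covers 25.4% of the exon bases of TSPAN31 from the opposite strand, EML3 covers 24.8% of ROM1, TEAD2 covers 7.7% of CD37 and POLR2L covers 6.5% of CD151.

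CD82 showed the largest difference among the abundant members. CD82 (ENSG00000085117.12, chr11:44564427-44620363) measured 157, 148 and 148 CPM in the controls, and 57.3, 58.2 and 54.7 CPM in shRNF20. No shRNF20 library came near the controls, and the mRNA was 2.66-fold lower (log2 fold change -1.41, SE 0.07). The value was -1.40 with the sum of the strand columns and lay between -1.45 and -1.38 over the 16 alternative settings, all of which kept the call. CD82's share of the family's summed level went from 7.02% to 2.57%.

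TSPAN1, an epithelial tetraspanin of secretory tissues, had the largest fold change of the family at a low level. TSPAN1 (chr1:46175073-46185958) measured 3.62, 6.95 and 5.54 CPM in the controls. In shRNF20 it measured 1.58, 0.772 and 0.879 CPM, from 41, 17 and 25 counts. The groups did not overlap, and the mRNA was 4.94-fold lower (log2 fold change -2.31, SE 0.35). TSPAN13 (chr7:16753535-16784536), which has been linked to calcium channels, was at 22.3, 35.8 and 26.4 CPM against 14.8, 12.03 and 11.5 CPM and fell 2.20-fold (-1.14, SE 0.19). Like CD82, TSPAN1 and TSPAN13 were called in all 16 alternative settings, and no other called member was.

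TSPAN8, a tetraspanin of epithelia and of carcinomas, was rare. TSPAN8 (chr12:71125085-71441898) measured 2.17, 1.93 and 2.64 CPM in the controls against 1.12, 0.817 and 1.20 CPM (log2 fold change -1.09, SE 0.27). It rested on 18 to 34 counts per shRNF20 library, and the groups did not overlap. TSPAN3 (chr15:77041404-77083984) fell 1.33-fold at a high level, from 185, 207 and 203 CPM to 151, 150 and 147 CPM (-0.41, SE 0.07). Both calls held in every setting but the one that summed the shRNF20 libraries to 1 sample.

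**Figure D2:**
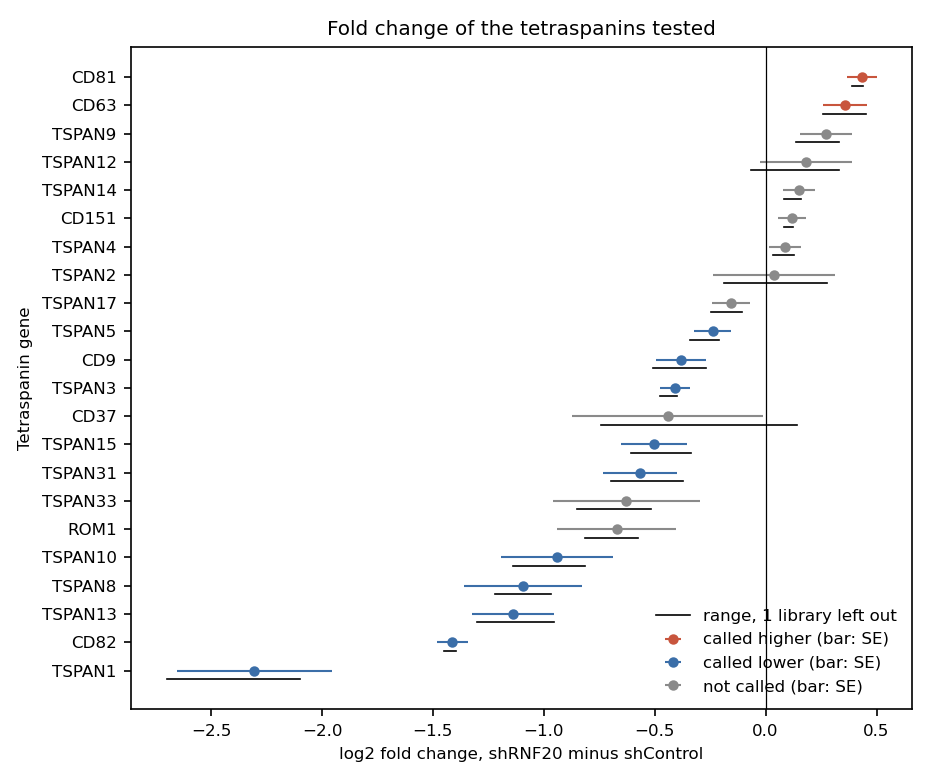
Log2 fold change of each tetraspanin tested (x axis, shRNF20 minus shControl) with its SE as a coloured bar, and in black the range when 1 library at a time is left out. TSPAN1 (-2.31) and CD82 (-1.41) lie farthest to the left, and CD81 (0.43) and CD63 (0.36) are the members called higher.

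The vesicle markers did not move together. CD9 (chr12:6199715-6238271) measured 253, 353 and 289 CPM in the controls against 229, 235 and 223 CPM (log2 fold change -0.38, SE 0.11). CD63 (chr12:55725323-55729707) was at 455, 593 and 492 CPM against 641, 647 and 687 CPM (0.36, SE 0.10). CD81 (chr11:2376177-2397419) was at 250, 256 and 234 CPM against 327, 336 and 337 CPM (0.43, SE 0.07). CD9 thus fell 1.30-fold, while CD63 rose 1.28-fold and CD81 rose 1.35-fold, and no group overlapped. The CD9 call was lost without shRNF20 replicate 1 (-0.395) or replicate 3 (-0.38), and the CD63 call without shRNF20 replicate 2 (0.36) or replicate 3 (0.31).

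Ratios within a library do not depend on the scaling between libraries. CD81 had 0.989, 0.727 and 0.809 counts per CD9 count in shControl and 1.43, 1.43 and 1.51 in shRNF20, a mean ratio 1.73 times as high. CD63 had 1.80, 1.68 and 1.70 counts per CD9 count in shControl and 2.80, 2.76 and 3.08 in shRNF20. CD82 had 0.628, 0.576 and 0.632 counts per CD81 count in shControl and 0.175, 0.173 and 0.162 in shRNF20, a mean ratio 3.60-fold lower. The groups did not overlap in these 3 ratios. That separation follows from those of CD9, CD63, CD81 and CD82 in CPM, given above, and adds no independent support. The ratio of CD63 to CD81, with means of 2.08 ± 0.25 and 1.97 ± 0.06 (SD, n = 3), overlapped between the groups.

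**Figure D3:**
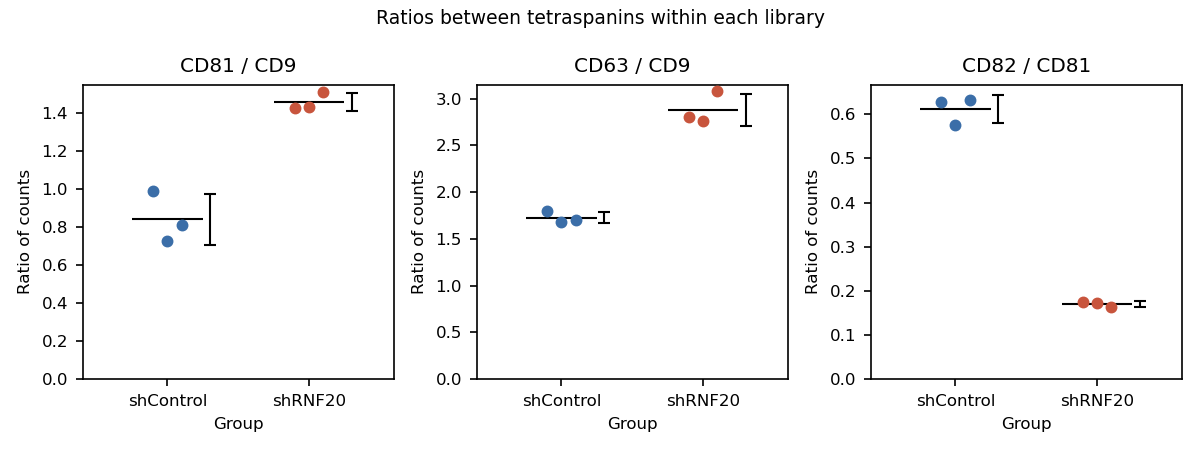
Ratio of the counts of a pair of tetraspanins in each library (points), with the mean as a line and the SD of 3 libraries as a bar. CD81 and CD63 are higher relative to CD9 in every shRNF20 library, and CD82 is lower relative to CD81.

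TspanC8 tetraspanins escort the protease ADAM10 to the cell surface and influence which substrates it cuts; the group consists of TSPAN5, TSPAN10, TSPAN14, TSPAN15, TSPAN17 and TSPAN33. Of these 6, 3 fell and 3 were not called, beside 29.8% called lower and 58.4% called in all over all genes tested. Nothing particular to the group is read from this count. TSPAN15 (chr10:69451473-69507669), which directs ADAM10 to N-cadherin, measured 30.3, 42.3 and 29.2 CPM in the controls against 23.2, 23.3 and 25.3 CPM (log2 fold change -0.50, SE 0.15). TSPAN10 (chr17:81637171-81648749) was at 4.61, 5.09 and 3.02 CPM against 1.89, 2.54 and 2.21 CPM (-0.94, SE 0.25). TSPAN5 (chr4:98470367-98658629) was at 82.6, 99.4 and 97.9 CPM against 79.6, 78.1 and 79.4 CPM (-0.24, SE 0.09).

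The shControl and shRNF20 libraries did not overlap for TSPAN15, TSPAN10 or TSPAN5, a separation whose frequency over all genes tested was not computed. The highest shRNF20 value of TSPAN5 (79.6 CPM) lay close to its lowest control (82.6 CPM). The TSPAN15 call was lost without shRNF20 replicate 1 or 2 (-0.49 and -0.50), the TSPAN10 call without shRNF20 replicate 1 (-0.85), and the TSPAN5 call in 9 of 16 settings. TSPAN14 was at 0.15 (SE 0.07), TSPAN17 at -0.16 (SE 0.09) and TSPAN33 at -0.63 (SE 0.33), none of them called. With upper quartile scaling TSPAN14 was called higher (0.185). TSPAN14 made up 20.4% ± 1.87 of the summed TspanC8 level in shControl and 26.0% ± 0.45 in shRNF20 (SD, n = 3), and TSPAN15 made up 25.5% ± 4.33 and 20.7% ± 0.47. Neither share overlapped between the groups. The summed TspanC8 level was 209 ± 8.01 TPM in shControl and 160 ± 7.61 TPM in shRNF20 (SD, n = 3), on a scale that includes the mitochondrial RNA. The size of this difference depends on the scale and on the lengths used. TSPAN14, with the most exon bases of the group (17888), averaged 42.7 and 41.5 TPM but 183 and 203 CPM. TSPAN17 averaged 55.1 and 43.3 TPM but 68.8 and 61.7 CPM. The sum was not computed in CPM, and the part of scale and length was not tested.

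The remaining tested members were mostly not called. CD151 (chr11:832843-839831) measured 242, 254 and 246 CPM in the controls against 262, 268 and 276 CPM (log2 fold change 0.12, SE 0.06), so its libraries separated without a call. TSPAN4 (0.09, SE 0.07), TSPAN9 (0.27, SE 0.12), TSPAN12 (0.18, SE 0.21) and TSPAN2 (0.04, SE 0.28) were not called. ROM1 (-0.67, SE 0.27) and CD37 (-0.44, SE 0.43) were not called either, and both rest on the parts of the gene that no other gene overlaps. CD37 was at 1.69, 3.75 and 1.19 CPM in shControl, and its direction turned without shControl replicate 2 (0.14), while it was called lower with the sum of the strand columns (-1.37). TSPAN17 and TSPAN9 were called without shControl replicate 2 (-0.245 and 0.33), TSPAN33 without shControl replicate 3 (-0.85) and ROM1 without shControl replicate 1 (-0.79).

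TSPAN31, a gene that shares its 3′ end with CDK4 on the opposite strand, was called lower, but its direction depended on the column counted. TSPAN31 (chr12:57738013-57750211) measured 20.8, 29.5 and 18.9 CPM in the controls against 14.9, 15.4 and 16.5 CPM (log2 fold change -0.57, SE 0.17). With the sum of the strand columns, which adds reads from the shared part, the value was 0.13. The call was also lost without shRNF20 replicate 1 or 2 (-0.55 and -0.57). Counts from TSPAN31 and CDK4 in the shared part cannot be told apart in these libraries.

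Of the tetraspanins known from specialised cells, CD53, UPK1A, UPK1B and PRPH2 were at or near 0, while CD37 and ROM1 were low but tested. CD37, a leukocyte tetraspanin, had 28 to 95 counts per library, and CD53, another, had 0 to 3, while the leukocyte markers CD2 and MS4A1 had none. The 12 leukocyte markers summed to 31.4 to 50.8 CPM in shControl and 29.3 to 35.7 CPM in shRNF20, mostly ITGB2; of 6 tested, CD14 rose and CSF1R and LCP1 fell. UPK1B, a uroplakin of the bladder surface, had 0 counts in all 6 libraries, which allows up to 0.101 to 0.136 CPM per library (3 counts, counting error only), and UPK1A had 0 to 3 counts. The 7 urothelial markers summed to 7.78 to 16.4 CPM in shControl and 9.44 to 11.8 CPM in shRNF20, mostly GATA3, with UPK2 at 0.187, UPK3A at 0.178 and UPK3B at 0.60 CPM in shControl. UPK3BL1 had 0 counts, but 98.2% of its exon bases are shared with other genes, so this count does not measure it. PRPH2, which shapes photoreceptor discs, had 0 to 6 counts, whereas its partner ROM1 had 19 to 40; the photoreceptor genes SAG, GNAT1 and CRX had none. The 10 photoreceptor markers summed to 4.94 to 5.99 CPM in shControl and 4.12 to 4.90 CPM in shRNF20, and of 5 tested PDE6A rose. TSPAN11, TSPAN16, TSPAN18, TSPAN19 and TSPAN32 were not tested either, with 2 to 14 counts of TSPAN19 and 2 to 13 of TSPAN11 per library and 0 to 5 for the other 3. TSPAN6, X-linked and so outside the members, averaged 25.0 ± 2.40 CPM in the controls and 25.7 ± 0.97 CPM in shRNF20 (SD, n = 3). Its log2 fold change was 0.04 (SE 0.10, edgeR adjusted p = 0.755), and TSPAN7, also X-linked, had 0 counts throughout.

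Chromosomes 11 and 12 held 7 members each. On chromosome 11, CD151 and TSPAN4 lie 3.0 kb apart, TSPAN32 and CD81 58.0 kb apart, and CD82 and TSPAN18 106.1 kb apart. CD151 and TSPAN4 were both abundant, and the ratio of their counts was 2.01, 1.86 and 2.04 in shControl and 1.95, 2.02 and 2.06 in shRNF20. The other neighbours were unlike each other. CD81 had at least 5494 counts in each library against at most 5 for TSPAN32, and CD82 at least 1283 against at most 2 for TSPAN18.

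Promoter windows (250 bases before to 50 after a RefSeq start, GRCh38.p14) were found for 24 of the 31 members, and the one nearest the annotated gene start was used. Of these, 13 held a GC box (GGGCGG on either strand; 54.2%, against 45.0% of all 35116 windows), 9 a CCAAT box (CCAAT; 37.5% against 34.6%), 2 an AP-1 motif (TGANTCA; 8.3% against 7.7%) and 1, UPK1A, a TATA box (TATAAA; 4.2% against 11.5%). The motifs were searched on both strands and overlapping matches were each counted. The RefSeq start used lay within 320 bases of the GENCODE gene start for 19 members and farther for CD82 (1236 bases), ROM1 (1535), TSPAN10 (5134), TSPAN31 (7026) and TSPAN8 (283899). To compare CD82 and TSPAN1, the members with the largest falls, part of each window is shown 5′ to 3′, with motif matches in capitals. Printed are the bases before the first annotated exon that overlaps the window. For CD82 these bases lie inside the annotated gene, which starts at chr11:44564427. CD82 is at chr11:44565413-44565590 and TSPAN1 at chr1:46174837-46175072 (RefSeq, GRCh38.p14, plus strand).
CD82: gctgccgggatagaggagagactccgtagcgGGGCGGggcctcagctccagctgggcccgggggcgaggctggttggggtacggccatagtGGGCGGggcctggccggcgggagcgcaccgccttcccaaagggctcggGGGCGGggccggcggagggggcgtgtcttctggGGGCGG
TSPAN1: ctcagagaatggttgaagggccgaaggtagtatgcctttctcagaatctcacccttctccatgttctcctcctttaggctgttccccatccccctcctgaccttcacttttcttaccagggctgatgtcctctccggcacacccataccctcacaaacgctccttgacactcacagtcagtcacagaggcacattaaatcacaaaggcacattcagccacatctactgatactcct
The capitals in CD82 are its 4 GC boxes, in a window of 76.7% GC over 300 bases. The TSPAN1 window (52.0% GC) holds none of the 4 motifs, and that of TSPAN13 (71.3% GC) holds 3 GC boxes and a CCAAT box. With none in the TSPAN1 window, no motif searched could be in all 3 of these windows, and nothing is read from this.

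Among binding partners of tetraspanins, calls went in both directions. Of 17 partners listed (integrins, immunoglobulin proteins, proteases and receptors), 16 were tested, 7 fell, 4 rose and 5 were not called (median log2 fold change -0.07). Over all genes tested, 28.7% were called higher and 29.8% lower (58.4% in all). Genes of this and the following lists are described singly, with nothing particular to a list read from its counts. The lists were chosen with earlier results of these data known, and the genes named include those with the smallest p. The adjusted p of a list gene therefore only describes that gene in this fit and adds no independent support. Of the laminin-binding integrin chains, known as partners of CD151, ITGA3, ITGA6 and ITGB4 fell. ITGA3 measured 1261, 1164 and 1072 CPM in the controls against 469, 493.5 and 481 CPM (-1.28, SE 0.08, edgeR adjusted p = 1.13e-05). ITGB4 fell by 1.47 (SE 0.13, edgeR adjusted p = 3.90e-05) and ITGA6 by 0.86 (SE 0.12, edgeR adjusted p = 3.42e-04) on the log2 scale. Their groups did not overlap, whereas ITGB1, the common partner chain, was at 0.05 (SE 0.07, edgeR adjusted p = 0.588). ITGA7, another laminin-binding chain, was not called (-0.31, SE 0.40, edgeR adjusted p = 0.525), its groups overlapped, and it was at 0.39 without shControl replicate 2.

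CD44, the hyaluronan receptor, fell as well (-1.23, SE 0.11, edgeR adjusted p = 4.50e-05). The genes that rose were the sheddases ADAM17 (0.89, SE 0.07, edgeR adjusted p = 3.10e-05) and ADAM10 (0.44, SE 0.12, edgeR adjusted p = 0.0109), the tight junction gene CLDN1 (0.70) and the epithelial adhesion gene EPCAM (0.64). ADAM10 measured 209, 168 and 150 CPM in the controls against 245, 239 and 230.5 CPM, without overlap. Of 14 ADAM10 substrates listed, CD44 included, 6 fell and 2 rose (median -0.26), beside 58.4% called over all genes tested. The cytokine receptor IL6R (1.30, edgeR adjusted p = 5.65e-04) and the chemokine CXCL16 (0.71, edgeR adjusted p = 0.00586) rose, and the chemokine CX3CL1 (-1.675, edgeR adjusted p = 3.49e-04) and E-cadherin, CDH1 (-1.38, edgeR adjusted p = 0.00161), fell.

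Of 21 genes of vesicle formation and release tested, 8 rose, 6 fell and 7 were not called (median 0.06), beside 28.7% higher and 29.8% lower over all genes tested. LAMP1, a lysosomal membrane protein, measured 335, 351 and 334 CPM in the controls against 535.5, 533 and 595 CPM (0.705, SE 0.07, edgeR adjusted p = 8.43e-05). The ESCRT ATPase VPS4A (0.65, edgeR adjusted p = 2.08e-04) and the recycling GTPase RAB35 (0.68, edgeR adjusted p = 4.67e-04) rose too. Other genes share 36.4% of the exon bases of VPS4A and 14.8% of those of RAB35. RAB27A, which docks multivesicular endosomes at the plasma membrane, was at 42.1, 45.8 and 44.4 CPM against 24.9, 27.1 and 24.0 CPM (-0.80, SE 0.09, edgeR adjusted p = 1.27e-04). The count of rises dropped to 4, 4 and 5 without shRNF20 replicates 1, 2 and 3.

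Tetraspanins are anchored in membranes by palmitate, and ZDHHC2 and ZDHHC3 are known to attach it. Of 8 palmitoylation genes tested, 4 rose and 1 fell (median 0.16), beside 58.4% called over all genes tested. ZDHHC3 rose from 109, 105 and 113 CPM to 169, 171 and 180 CPM (0.67, SE 0.07, edgeR adjusted p = 7.93e-05), with ZDHHC7 (0.71), LYPLA2 (0.41) and ABHD17A (0.18) also higher. ABHD17C, a depalmitoylase, fell (-0.81, SE 0.13, edgeR adjusted p = 7.45e-04), and ZDHHC2 was at 0.10 (SE 0.07, edgeR adjusted p = 0.218). The ABHD17A call was lost without any 1 library but shControl replicate 2 (0.15 to 0.19).

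TSPAN12 is known as a coreceptor of FZD4 in Norrin signalling. FZD4 measured 12.5, 14.5 and 10.6 CPM in the controls against 7.27, 7.40 and 6.54 CPM (-0.83, SE 0.15, edgeR adjusted p = 0.00187). LRP5 was called lower (-0.46, with overlapping groups) and LRP6 higher (0.18), and NDP was not tested. The LRP5 call was lost without shControl replicate 2 or 3 or any 1 shRNF20 library (-0.49 to -0.34), and the LRP6 call without shControl replicate 1 or 3 or any 1 shRNF20 library (0.12 to 0.19). In the L6 family, proteins of similar topology that are not tetraspanins, 2 of 6 genes were tested. TM4SF1 fell (-0.43, SE 0.11, edgeR adjusted p = 0.0091), and TM4SF19 was called higher at low level (0.86, SE 0.29, edgeR adjusted p = 0.0322). The TM4SF19 call was lost without any 1 library but shControl replicate 2, and with the sum of the strand columns (0.655). Other genes share 49.6% of the exon bases of TM4SF19.

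**Figure D4:**
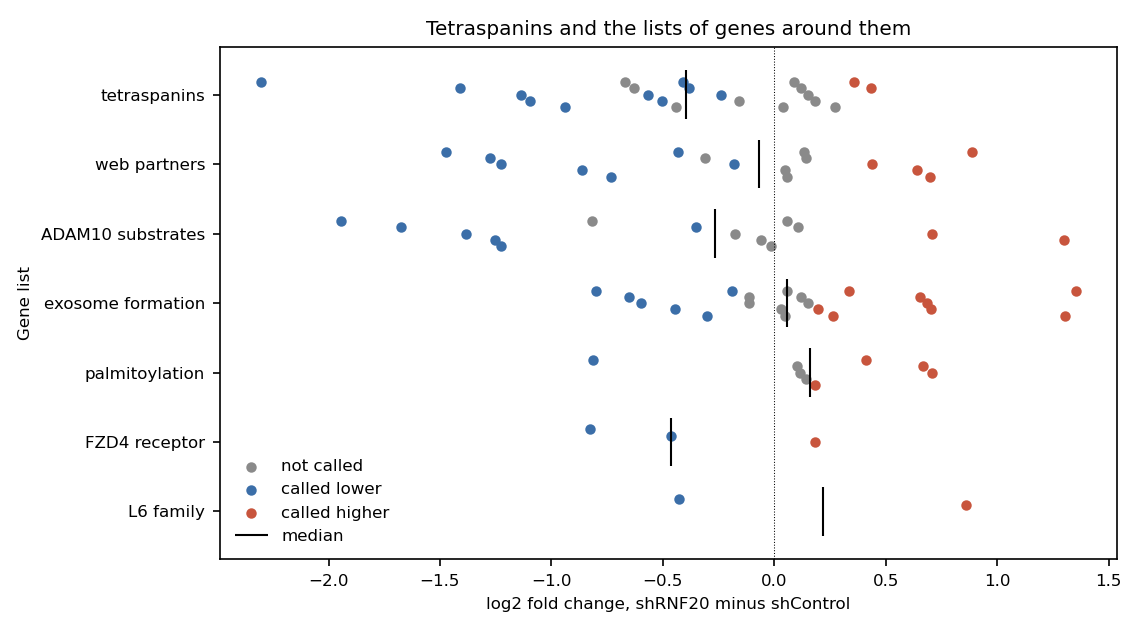
Log2 fold change (x axis, shRNF20 minus shControl) of the tested genes of each list, coloured by call, with the median as a black line; vertical scatter within a list has no meaning. Every list holds calls in both directions, and the tetraspanin median is -0.40.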

How the data were processed

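RNA from 3 shControl and 3 shRNF20 samples was sequenced. Per the submitters' processing notes, FastQC 0.12.1 served for quality control and STAR 2.7.11a for alignment, on hg38. Which annotation release was counted is not given in the sources used here. Raw counts per gene (without strand, and per strand) were deposited by the authors for each library. Lines naming no gene held 20.9% to 24.1% of reads and were left out. Symbols came by identifier (62686 of 62703 genes), and positions, types and exon lengths from GENCODE 29, which holds 58264 of them and may not be the release used for counting.

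Unstranded counts were analysed in R 4.3.3 with edgeR 4.0.16 (filterByExpr, minimum count 10; TMM; robust quasi-likelihood F-test; Benjamini-Hochberg over all genes; threshold 0.05). An SE is |log2 fold change| over the square root of F. The step was tested on simulated data with the same dispersion in both groups. The libraries here differ in spread (20.04% in shControl, 3.97% in shRNF20), which that simulation does not cover. Alternatives, 16 in all, included DESeq2 1.42.0 and limma-voom (limma 3.58.1). The members and the gene lists were chosen with earlier results of these data known. Members called, the 6 with the highest level, RNF20, TSPAN6, TSPAN7, the 4 genes with the smallest p of each list, and any of 5 or fewer that moved 1 way were named; other genes named were chosen after their values were seen. Protein sequences were not used here. No promoter entry is printed for CD81, CD151, TSPAN3, TSPAN9, TSPAN18, TSPAN32 or CD37.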

Additional observations from a re-analysis of the deposited data

How the results depend on the processing

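The 16 alternatives gave 3 to 11 tetraspanins called lower and 0 to 3 called higher. Called members kept their direction, except TSPAN31 with the sum of the strand columns (0.13). With 1 library left out, 5 to 11 were called lower (5 without shRNF20 replicate 1) and 1 to 3 higher. With the shRNF20 libraries summed to 1 sample, which draws the spread from shControl alone, 3 were called lower (TSPAN1, CD82, TSPAN13) and 0 higher, and 1753 genes were called higher and 1619 lower over all genes. RNF20 ranged from -2.33 to -2.15. The leading 6 in level were 5 of the same genes with the longest transcript as length.

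With the summed shRNF20 sample, calls were 2 higher among partners, 1 higher and 2 lower among ADAM10 substrates, 3 higher and 1 lower among vesicle genes, 1 higher among palmitoylation genes, and 0 in either direction for the FZD4 and L6 lists. With 1 library left out, vesicle genes called higher were 4 to 7, FZD4 genes 0 to 1 higher and 1 to 2 lower, and L6 genes 0 to 2 higher. The FZD4 list had 0 higher without mitochondrial genes, with DESeq2, with no filter and with the replicate block. The L6 list had 2 higher with DESeq2 or no filter and 0 with the strand columns.

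Genes not called that changed direction were TSPAN2 (-0.187 without shControl replicate 3, -0.139 without shRNF20 replicate 1), TSPAN12 (-0.067 without shControl replicate 1), CD37 (0.14) and ITGA7 (0.394) without shControl replicate 2, ITGB1 (-0.018), MET (-0.015) and CDH2 (0.061) without shControl replicate 1, and ARF6 (-0.012 with no filter, -0.025 without shControl replicate 3). NOTCH3 turned with upper quartile scaling (0.015), limma-voom (0.142), the strand columns (0.012), the replicate block (0.127), the summed sample (0.012) and without shControl replicate 2 (0.513) or shRNF20 replicate 1 (0.027). Their ranges with 1 library left out were -0.187 to 0.279 (TSPAN2), -0.067 to 0.33 (TSPAN12), -0.741 to 0.14 (CD37), -0.639 to 0.394 (ITGA7), -0.018 to 0.061 (ITGB1), -0.015 to 0.122 (MET), -0.344 to 0.513 (NOTCH3), -1.18 to 0.061 (CDH2) and -0.025 to 0.038 (ARF6). The cause was not tested.

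Same-numbered samples did not deviate together (correlations of -0.016, 0.035 and 0.028). The shRNF20 libraries varied little among themselves (biological coefficient of variation 3.97%). The correlations therefore cannot show whether same-numbered samples shared a batch or culture. With the replicate block, 9 tetraspanins were called lower and 2 higher; TSPAN5 was no longer called (-0.235).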
